A study of Homo sapiens with 2 samples.

Results

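The genes described here are 10 markers of amnion and trophectoderm, extraembryonic epithelia of the early embryo. They were chosen by name, 10 of the 17397 genes listed in the RNA-Seq tables, and comprise the transcription factors TFAP2A, TFAP2B, CDX2, TP63 and DLX5, the surface proteins GABRP, VTCN1 and HAVCR1, and the secreted proteins WNT6 and CGA. Their expression was compared between 1 library of wild-type (WT) H1 cells and 1 library of MEIS2-/- H1 cells, both taken at day 4 of hematopoietic differentiation. H1 is an established human embryonic stem cell line. In both cultures, 2 days with activin A (50 ng/ml) and BMP4 (40 ng/ml) were followed by 2 days with VEGF (40 ng/ml) and bFGF (50 ng/ml). The MEIS2-/- cells descended from a single colony picked after lentiviral delivery of Cas9 and a guide RNA against MEIS2 and after puromycin selection. The sources do not say which clone was sequenced or whether the WT cells carried a control vector, so deletion, vector, clone and culture cannot be told apart.

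The trophectoderm is the outer layer of the blastocyst and the amnion arises from the epiblast within it. BMP signaling has been reported to drive human pluripotent cells toward both, which was not tested here. AP-2 factors, GATA3 and simple-epithelium keratins are shared by the 2 tissues, whereas GABRP and VTCN1 are used as amnion markers and CGA and the CGB genes encode the subunits of chorionic gonadotropin, a trophoblast hormone. Several members also act elsewhere, since CDX2 marks posterior mesoderm and intestine, TP63 and TFAP2A mark surface ectoderm, and TFAP2B and DLX5 mark neural crest and placodes. No member is therefore proof of a cell type by itself.

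Expression was given as FPKM, which counts the fragments of a gene relative to its transcript length and to the total of mapped fragments. A gene was compared if it reached 1 FPKM in at least 1 library, which left 13075 genes. Log2 fold changes are those of MEIS2-/- over WT with 0.1 FPKM added to both, so the change of low genes is understated, and a difference of 2-fold or more was counted. With 1 library per genotype there was no test, no error between cultures and no replicate check for any difference below, and the depth is unknown because the tables hold no read counts. MEIS2 itself was listed at 10.85 FPKM in WT and 3.44 FPKM in MEIS2-/- cells. The authors identified their MEIS2-/- lines at the level of protein and DNA, by western blot and sequencing. Of 10 genes of hemogenic endothelium, the cell type the culture is meant to yield, 9 were compared. Of these, 5 were lower in MEIS2-/- cells by 2-fold or more, against 7.97% of all genes compared. KDR was at 323.77 and 61.98 FPKM and ETV2 at 109.62 and 17.54 FPKM. SOX17 was the 1 compared gene of this list with a higher value in MEIS2-/- cells, at 141.01 and 264.03 FPKM, under 2-fold. In bulk RNA, fewer cells of a type and less RNA per cell cannot be told apart.

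Of the 10 marker genes, 6 were compared, and all 6 were at least 2-fold higher in MEIS2-/- cells. These risers were TFAP2A, CDX2, DLX5, GABRP, VTCN1 and WNT6. Among all genes compared, 7.84% were at least 2-fold higher and 7.97% at least 2-fold lower. The members were chosen with earlier results of these data known, so their count is not an independent result to weigh against those shares. No member that was compared was lower. DLX5 and VTCN1 reached 1 FPKM only in the MEIS2-/- library, so the filter let them in through the library where they were high, while the other 4 also reached it in WT cells. Large changes were more frequent among low genes, since 13.6% of the genes with a mean under 5 FPKM were at least 2-fold higher, against 5.94% of those between 5 and 20 FPKM. DLX5 and VTCN1 lie in the band under 5 FPKM and TFAP2A, CDX2, GABRP and WNT6 in that between 5 and 20 FPKM. The remaining members, TFAP2B, TP63, HAVCR1 and CGA, stayed below 1 FPKM in both libraries.

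The sequences before the start sites of a few members are shown. CDX2, VTCN1 and WNT6 were higher in MEIS2-/- cells. CGA was below the filter in both libraries, at 0.13 FPKM in WT and 0 in MEIS2-/- cells, so it is no contrast to them. RefSeq windows of the 250 bases before the start on GRCh38.p14 were matched to 9 of the 10 members, all but DLX5, with 2 starts for TFAP2A. Capitals mark letters found in a search of both strands for short motifs. MEIS factors were represented by the letters TGACAG. The CDX factors were represented by TTTATG and AP-2 by GCCNNNGGC. The zinc-finger factors such as GATA2 were represented by a motif spelled AGATAA. Those of the TEAD family were represented by GGAATG, and the cAMP response element was searched for as TGACGTCA. No 2 motifs overlapped in a member window. The CDX2 window lies at chr13:27969316-27969565, minus strand, that of VTCN1 at chr1:117210928-117211177, minus strand, that of WNT6 at chr2:218859555-218859804, plus strand, and that of CGA at chr6:87095107-87095356, minus strand.
CDX2: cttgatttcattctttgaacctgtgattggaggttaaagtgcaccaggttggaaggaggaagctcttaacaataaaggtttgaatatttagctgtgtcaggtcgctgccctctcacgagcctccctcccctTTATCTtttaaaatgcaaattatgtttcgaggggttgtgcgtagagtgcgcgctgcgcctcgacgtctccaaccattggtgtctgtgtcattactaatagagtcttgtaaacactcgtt
VTCN1: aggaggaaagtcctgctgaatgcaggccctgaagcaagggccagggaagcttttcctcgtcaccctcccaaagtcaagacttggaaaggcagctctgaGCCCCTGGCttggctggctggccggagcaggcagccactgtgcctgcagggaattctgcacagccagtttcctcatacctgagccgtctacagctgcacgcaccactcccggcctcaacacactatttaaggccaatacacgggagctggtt
WNT6: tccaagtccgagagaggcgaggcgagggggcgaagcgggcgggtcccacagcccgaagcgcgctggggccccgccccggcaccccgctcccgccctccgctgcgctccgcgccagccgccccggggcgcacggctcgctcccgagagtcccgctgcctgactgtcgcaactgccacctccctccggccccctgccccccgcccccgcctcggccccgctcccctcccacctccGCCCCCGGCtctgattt
CGA: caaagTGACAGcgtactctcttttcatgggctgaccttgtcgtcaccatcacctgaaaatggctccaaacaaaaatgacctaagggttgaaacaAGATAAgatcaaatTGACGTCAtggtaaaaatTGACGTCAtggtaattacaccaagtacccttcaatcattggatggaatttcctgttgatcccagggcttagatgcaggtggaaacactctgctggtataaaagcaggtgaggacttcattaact

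The CGA window held 2 copies of TGACGTCA, the element through which cAMP is known to drive this gene, starting 142 and 124 bases before the start site. That element was in 1.65% of 35116 windows of all genes. The MEIS letters TGACAG were in the CGA window, 245 bases before the start, and on the opposite strand in the HAVCR1 window, 210 bases before the start. They were in 13.0% of all windows and in none of the 6 windows of the higher members TFAP2A, CDX2, GABRP, VTCN1 and WNT6. So few windows cannot be compared with that share. AP-2 letters were found in VTCN1, 152 bases before the start, and in WNT6, 17 bases before it, against 19.8% of all windows. GATA letters lay 119 bases before the CDX2 start and 156 bases before the CGA start (9.17% of all windows), CDX letters lay before TFAP2B and TP63 (9.64%), and the TEAD letters were in no member window (11.9%). The windows differed in composition, from 40.8% G and C in TFAP2B to 79.2% in WNT6, around a median of 58% over all windows. Matches of this kind describe the letters only, and their absence from these short windows says nothing about binding.

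CDX2, a homeobox factor of trophectoderm and of the posterior embryo, was at 4.83 FPKM in WT and 21.24 FPKM in MEIS2-/- cells. It was the highest of the 10 genes in each library, and its log2 fold change of 2.11 ranked 162 from the largest rise among the 13075 genes. TFAP2A, an AP-2 factor of amnion, trophoblast and surface ectoderm, came next in both libraries, at 4.52 and 19.13 FPKM, with a log2 fold change of 2.06. Both factors thus moved from the middle of the listed genes, above 50.0% and 48.8% of them in WT cells, to above 78.2% and 76.3% in MEIS2-/- cells. DLX5, a distal-less homeobox factor of placodes, limb and amnion, was at 0.97 FPKM in WT and 9.01 FPKM in MEIS2-/- cells. Its log2 fold change of 3.09 was the largest among the compared factors of the list.

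TP63 and TFAP2B were low factors. TP63, a factor that governs stratified epithelia, was at 0.10 FPKM in WT and 0.83 FPKM in MEIS2-/- cells, both below the filter. The table gives 1 value for 6 TP63 transcripts, so the long and short forms of the protein cannot be distinguished. TFAP2B was listed at 0 in WT cells and at 0.73 FPKM in MEIS2-/- cells, for which no fold is given. Of the 828 genes listed at 0 in WT cells and under 1 FPKM in MEIS2-/- cells, 8 were at least as high as TFAP2B in MEIS2-/- cells, TFAP2B included.

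Among the surface proteins, GABRP, a subunit of the GABA-A receptor, was at 1.06 FPKM in WT and 11.42 FPKM in MEIS2-/- cells. Its log2 fold change of 3.31 ranked 32 among all genes compared and was the largest of the members, an order that depends on the 0.1 FPKM added, since VTCN1 came first with 0.01 FPKM (3.45 against 3.42). VTCN1, which encodes the immune checkpoint ligand B7-H4, was at 0.37 and 4.15 FPKM, with a log2 fold change of 3.18 and rank 44. Both amnion markers were therefore close to the filter or below it in WT cells, and their FPKM differed more than 10-fold, by 10.8 and 11.2 times. HAVCR1, a phosphatidylserine receptor also known as kidney injury molecule, was at 0.31 FPKM in WT and 0.66 FPKM in MEIS2-/- cells, and the counting error of such low values is unknown.

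Of the secreted proteins, WNT6, a WNT ligand of surface ectoderm and extraembryonic epithelium, was at 3.81 FPKM in WT and 14.77 FPKM in MEIS2-/- cells. Its log2 fold change of 1.93 was the smallest among the 6 compared members and the 1 value under 4-fold. CGA, the alpha subunit shared by chorionic gonadotropin and the pituitary glycoprotein hormones, was at 0.13 FPKM in WT and listed at 0 in MEIS2-/- cells. It was the 1 member with a lower value in MEIS2-/- cells. Of 603 genes listed at 0 in MEIS2-/- cells and under 1 FPKM in WT cells, 18.4% were at 0.13 FPKM or more in WT cells, so a value of this size was common among such genes. Summed over the 10 members, expression was 16.1 FPKM in WT and 81.94 FPKM in MEIS2-/- cells. The first 6 places in the order of level were held by CDX2, TFAP2A, WNT6, GABRP, DLX5 and VTCN1 in both libraries.

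The AP-2, CDX and DLX families of the transcription factors held both genes with large differences and genes that stayed below the filter. TFAP2C, the AP-2 factor of trophoblast and of primordial germ cells, was at 10.41 FPKM in WT and 68.29 FPKM in MEIS2-/- cells, with a log2 fold change of 2.70, and was the most highly expressed AP-2 gene in each library. TFAP2E stayed under 1 FPKM, at 0.59 and 0.74 FPKM. CDX1 was at 0.99 and 12.44 FPKM, a log2 fold change of 3.52 that exceeded the 2.11 of CDX2, whereas CDX4 was at 0.26 and 0.25 FPKM. Of the 6 DLX genes, 5 were compared and 3 were at least 2-fold higher, namely DLX5, its chromosomal partner DLX6 (0.32 and 2.34 FPKM) and DLX3 (0.37 and 2.07 FPKM). All 3 reached 1 FPKM only in the MEIS2-/- library, so they could pass the filter only by being higher there, and among all genes with a mean under 5 FPKM the share at least 2-fold higher was 13.6%. DLX2 and DLX4 changed by less than 2-fold.

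**Figure D1:**
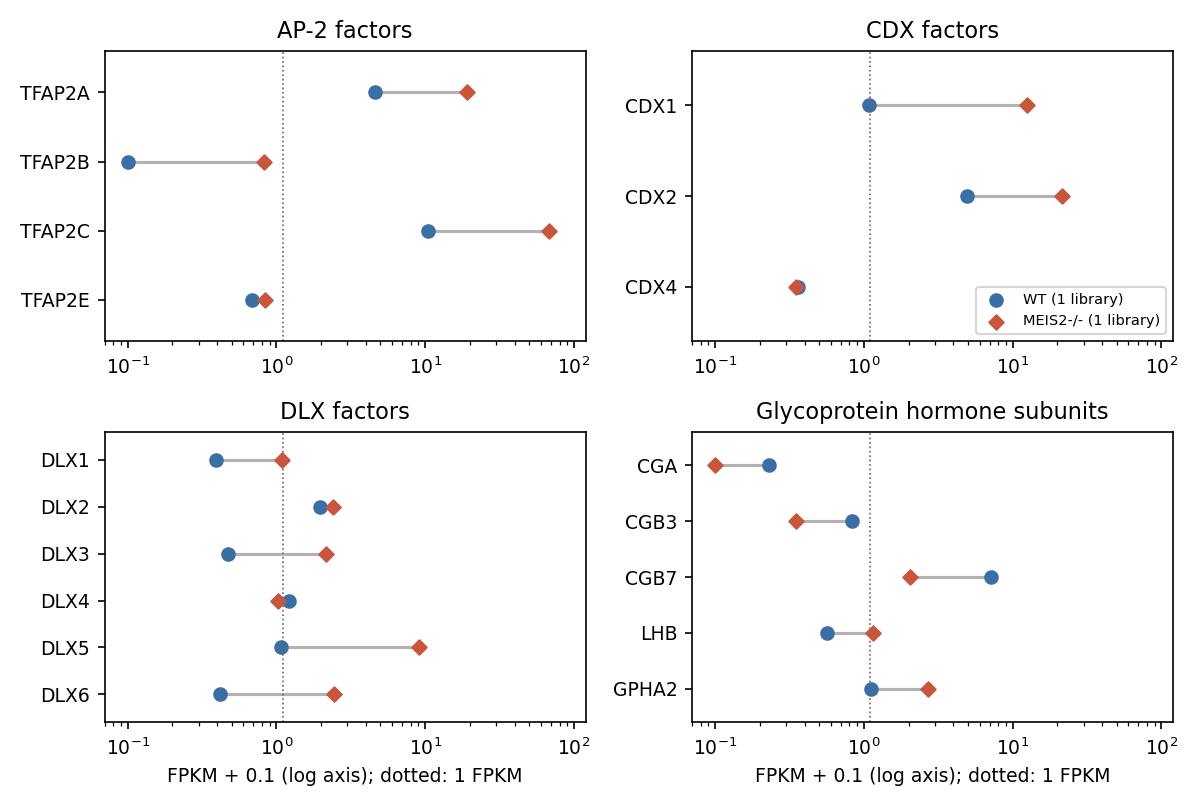
FPKM + 0.1 on a log axis for the AP-2, CDX, DLX and glycoprotein hormone subunit genes that the tables list, with a circle for the WT library and a diamond for the MEIS2-/- library. TFAP2C, TFAP2A, CDX1, CDX2, DLX3, DLX5 and DLX6 are set apart by wide gaps, while CDX4, DLX4 and TFAP2E show almost none, and CGA, CGB3 and CGB7 have the MEIS2-/- diamond to the left.

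The partners of the remaining members were also read. Of the 16 GABA-A receptor subunits, 5 were compared, and GABRP, GABRA3 (1.23 and 9.54 FPKM) and GABRQ (0.61 and 2.43 FPKM) were at least 2-fold higher. GABRQ reached 1 FPKM only in the MEIS2-/- library, so it could pass the filter only by being higher there. HAVCR2, next to HAVCR1 on chromosome 5, was at 1.20 and 1.29 FPKM. Of the glycoprotein hormone subunits, 3 were compared, and they went both ways. CGB7 was at 7.10 FPKM in WT and 1.95 FPKM in MEIS2-/- cells, with a log2 fold change of -1.81, and CGB3 was at 0.74 and 0.25 FPKM. These beta-subunit genes are near-identical copies, so the split of fragments among them is uncertain. LHB, which belongs to the same cluster, was at 0.47 and 1.06 FPKM, and so also reached the filter only in MEIS2-/- cells. GPHA2, the alpha subunit of thyrostimulin, was at 1.01 and 2.60 FPKM. Over all genes compared, 7.84% were at least 2-fold higher and 7.97% at least 2-fold lower, and 13.6% of those with a mean under 5 FPKM were higher.

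Genes outside the 10 that mark the same tissues did not share one direction. Of 10 genes common to amnion and trophoblast, all compared, 4 were at least 2-fold higher and 4 at least 2-fold lower. Over all genes compared, these shares were 7.84% and 7.97%. The median log2 fold change of the list was -0.21, beside 0.12 over all genes compared. The higher genes were KRT7, a keratin of simple and glandular epithelium (0.51 and 16.68 FPKM), TFAP2C, and the epithelial adhesion genes EPCAM (62.01 and 178.61 FPKM) and CDH1 (10.68 and 33.35 FPKM). The lower ones were GATA2 (89.90 and 39.95 FPKM) and the keratins KRT8 (2871.22 and 1227.58 FPKM), KRT18 (1200.32 and 538.43 FPKM) and KRT19 (2273.59 and 987.07 FPKM). KRT7 had the largest log2 fold change of these genes, 4.78, and reached 1 FPKM only in the MEIS2-/- library. The other 3 keratins, which were far more abundant, lay between -1.23 and -1.16. GATA3, a factor of both tissues, was at 55.06 and 55.40 FPKM, and HAND1, a factor of amnion and extraembryonic mesoderm, at 357.53 and 265.24 FPKM.

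Among 9 further amnion genes, 7 were compared, of which 2 were at least 2-fold higher and 1 at least 2-fold lower, with a median of 0.62. Over all genes compared, the shares higher and lower were 7.84% and 7.97%. IGFBP3 was at 4.22 and 28.54 FPKM and IGFBP5 at 9.14 and 21.51 FPKM, both genes for proteins that bind insulin-like growth factors. BMP4 was lower, at 272.89 and 134.75 FPKM, just past 2-fold. ISL1, a homeobox factor of amnion and of cardiac progenitors, was at 6.66 and 10.32 FPKM, under 2-fold. The surface mucin MUC16 and the integrin ITGB6, genes of later amnion epithelium, were listed at 0 in WT cells and at 0.02 and 0.15 FPKM in MEIS2-/- cells. Of 9 genes that respond to BMP, none was at least 2-fold higher and 1, MSX1, was at least 2-fold lower (187.93 and 84.26 FPKM). ID1, a direct BMP target, was at 664.99 and 837.65 FPKM.

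Of 30 further trophoblast genes, 23 were listed and 13 compared. At least 2-fold higher were DLX3, the laminin receptor subunit ITGA6 (11.18 and 25.45 FPKM), ERVW-1, which encodes the fusion protein syncytin (1.61 and 5.39 FPKM), and XAGE2, which was listed at 0 in WT cells and at 1.28 FPKM in MEIS2-/- cells. DLX3 and XAGE2 reached 1 FPKM only in the MEIS2-/- library, so they could pass the filter only by being higher there. CGB7 was the 1 gene of the list at least 2-fold lower, and the median was 0.35. Over all genes compared, 7.84% were at least 2-fold higher and 7.97% at least 2-fold lower. The list held both abundant genes and genes at or near 0. PEG10 was at 121.18 and 125.5 FPKM and CCKBR at 61.62 and 55.44 FPKM, both under 2-fold. VGLL1 was listed at 0 in WT cells and at 0.53 FPKM in MEIS2-/- cells. ELF5 was listed at 0 and at 0.11 FPKM, GCM1 at 0.28 and 0.17 FPKM, CYP19A1, the placental aromatase, at 0 in both libraries, and HSD3B1 at 0.13 and 0.05 FPKM. TEAD4, a factor required for trophectoderm, was at 43.44 and 61.88 FPKM, under 2-fold.

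Marker genes of several other cell types were higher in MEIS2-/- cells and those of others lower, and their part in the members' values was not tested. The shares to set beside the counts of each list are those over all genes compared, 7.84% at least 2-fold higher and 7.97% at least 2-fold lower. Among genes with a mean under 5 FPKM, 13.6% were at least 2-fold higher. Surface ectoderm, which also expresses TFAP2A, TP63 and WNT6, had 8 of 10 compared genes at least 2-fold higher and 0 lower, with a summed level of 106.14 FPKM in WT and 178.62 FPKM in MEIS2-/- cells. The Grainyhead factors GRHL2 (0.90 and 5.90 FPKM) and GRHL3 (0.92 and 6.45 FPKM) led that list. GRHL2, GRHL3 and KRT17 (0.58 and 1.36 FPKM) reached 1 FPKM only in the MEIS2-/- library, so they could pass the filter only by being higher there. The others were OVOL1, KRT14, ESRP1 and KRT17, with OVOL2 and DSP just past 2-fold. The basal epidermal keratin KRT5 was near 0, at 0.01 and 0.03 FPKM, and KRT15 stayed below the filter, at 0.20 and 0.15 FPKM. Of the genes of neural crest and placodes, which also express TFAP2B and DLX5, 4 were compared and all were lower, SOX10 (2.71 and 1.07 FPKM) and NGFR (2.34 and 0.73 FPKM) by at least 2-fold. Their summed level was 47.09 and 26.66 FPKM, and PAX3 and PAX7 were at or below 0.10 FPKM.

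The posterior mesoderm list, which itself holds CDX1 and CDX4, had 3 of 5 compared genes at least 2-fold higher and 1 lower. Of these, CDX1 reached the filter only in MEIS2-/- cells. TBXT, which encodes brachyury, was at 2.44 and 10.74 FPKM, MIXL1 at 2.33 and 6.47 FPKM, and TBX6 at 5.38 and 2.03 FPKM. EVX1, the most abundant gene of the list, changed by less than 2-fold (16.06 and 21.27 FPKM), and CDX4 stayed below the filter. The summed level of the list, 27.46 and 53.20 FPKM, included CDX1 at 0.99 and 12.44 FPKM. The germ cell list, which itself holds TFAP2C, had 3 of 6 at least 2-fold higher, among them NANOS3 (24.39 and 83.28 FPKM). Its summed level, 202.76 and 459.94 FPKM, came mostly from SOX17 (141.01 and 264.03 FPKM). SOX17 changed by less than 2-fold and is also on the hemogenic endothelium list. DPPA3 was the 1 gene of the germ cell list with a lower value, at 5.90 and 4.71 FPKM, under 2-fold. Genes of undifferentiated cells had 3 of 4 compared genes at least 2-fold higher (summed level 349.62 and 1626.97 FPKM, most of it from POU5F1 at 285.65 and 1454.14 FPKM), with SOX2 near 0 at 0.09 and 0.15 FPKM. The 6 visceral endoderm genes were each at least 2-fold higher, but APOB (0.27 and 3.72 FPKM), AFP (0.32 and 3.91 FPKM) and TTR (0.38 and 5.31 FPKM) reached the filter only in MEIS2-/- cells. The summed level of that list, 411.04 and 931.37 FPKM, came mostly from the apolipoprotein gene APOA1 (401.38 and 879.13 FPKM).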

How the data were processed

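RNA from 1 WT and 1 MEIS2-/- culture was extracted with Trizol and prepared with an Illumina TruSeq RNA kit, per the labels. For each library the authors deposited 1 FPKM value per gene, with 2 decimals. The submitters' processing notes name BWA, Bowtie and RSEM and the build hg19, and versions are not given in the sources used here. FPKM is relative to all mapped fragments, so a few highly expressed genes can shift the rest. Among genes with 1 transcript, low values showed no whole-read steps (best agreement 0.0841 in WT and 0.0690 in MEIS2-/-, where 1 is complete), so no depth could be recovered and no count test was run.

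NCBI Gene numbers were matched to current symbols through the RefSeq table of GRCh38.p14 (17365 of 17397 genes), and promoter windows came from the same release. The coordinates printed are those of promoter windows on GRCh38.p14, a build other than the hg19 named for the FPKM. Because the builds differ, no coordinates of whole genes are given. In GENCODE 29, exons of TFAP2A and GABRP overlap antisense genes, and the sources do not say that strand was used in counting. Genes that reached 1 FPKM in either library were compared, with a pseudocount of 0.1 FPKM and a threshold of 2-fold. The named genes are the 10 members, MEIS2 and, from lists of related genes and cell types written beside them, genes at least 2-fold changed or absent; ones changed less than 2-fold (such as GATA3, HAND1 and TEAD4) were added after their values were seen. The members and lists were chosen with earlier results of these data known. Alternatives were other pseudocounts, filters, thresholds and scalings, and a filter on the mean was added after the data were seen. Some genes of the lists are not reported here. The computation of fold calls, not any difference between the libraries, was tested on simulated data. Python 3.11.15, numpy 2.4.6, pandas 2.3.3 and matplotlib 3.10.9 were used.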

Additional observations from a re-analysis of the deposited data

How the results depend on the processing

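With 1 library per genotype and no counts, neither replicate nor counting error is known, so a value was judged by its side of the 2-fold threshold. Over 9 alternatives and 1 added after the data were seen, the number of members at least 2-fold higher ran from 5 to 8. It was 5 with a filter at 5 FPKM, which removed VTCN1, and 5 at a threshold of 4-fold, which WNT6 missed. Without a filter it was 8, with TP63 and TFAP2B, and 1 member, CGA, was then at least 2-fold lower, against 0 in the other settings. The median log2 fold change of the compared members ran from 1.92 with a pseudocount of 1 FPKM to 2.67 with one of 0.01 FPKM, and was 2.17 over all 10 without a filter. Among the compared members VTCN1 had the widest range, from 1.91 to 3.45, and all 47 alternative values of the 6 compared members stayed above 2-fold. A filter does not alter the log2 fold change of a gene, so those of the 47 values that come from other filters only repeat the main values. Setting the median log2 ratio to 0 removed a shift of 0.12, TMM (trimming 30% of the log ratios and 5% of the means at each end) one of 0.10 and an equal sum one of -0.02. A pseudocount of 1 FPKM took SOX10, NGFR, KRT17, OVOL2, LHB and GPHA2 under 2-fold. Rescaling to a median of 0 or by TMM did so for OVOL2, DSP and LHB, rescaling to a median of 0 also for KRT17, and an equal sum did so for BMP4. Over all genes, the count at least 2-fold higher was 1025, against 623 with a pseudocount of 1 FPKM, 1567 unfiltered, 554 with a filter at 5 FPKM, 2353 at 1.5-fold and 194 at 4-fold. The lower count was 1042, against 693, 1516, 598, 1890 and 241. Rescaling to a median of 0 gave 833 higher and 1197 lower genes, and TMM 853 and 1179. No paired analysis was possible because each genotype had 1 library.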

Other observations

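The genes beside the members on their chromosomes were read after the members' values had been seen. Of the 12 protein-coding neighbours (1 on each side, among genes the tables list) of the 6 members that were at least 2-fold higher, 11 were compared, 5 were at least 2-fold higher and 1 was at least 2-fold lower. The higher neighbours were DLX6 beside DLX5, KCNMB1 beside GABRP (0.14 FPKM in WT and 1.71 FPKM in MEIS2-/- cells), URAD beside CDX2 (0.75 and 2.08 FPKM), and TRIM45 (5.92 and 13.19 FPKM) and MAN1A2 (2.65 and 5.84 FPKM) on the sides of VTCN1. DLX6, KCNMB1 and URAD reached 1 FPKM only in MEIS2-/- cells and so passed the filter through the library where they were high. Among all genes compared 7.84% were at least 2-fold higher, and 13.6% of those with a mean under 5 FPKM. CYP27A1, beside WNT6, was lower, at 59.30 and 23.95 FPKM. WNT10A, the WNT gene on the other side of WNT6, was listed at 0 in WT cells and at 0.05 FPKM in MEIS2-/- cells. The neighbours of TFAP2A changed by less than 2-fold, SLC35B3 at 6.89 and 8.53 FPKM and GCNT2 at 9.85 and 11.65 FPKM.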
